A study of Mus musculus with 44 samples.

Results

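The comparison set the gastric corpus mucosa of treated knockout (KO) mice, which lack the beta subunit of the H+/K+ATPase, against that of untreated wild-type (WT) mice, and asked for each gene whether the treated KO mice were at the untreated WT level. The members were the 11 libraries of KO mice given netazepide (NTZ, also called YF476, an antagonist of the gastrin/CCKB receptor) and the 11 libraries of WT mice given its vehicle, polyethylene glycol (PEG). They were chosen by their labels and are 22 of the 44 libraries of the series. The 13 libraries of KO mice given PEG served to show which genes differed between KO and WT mice without NTZ. The 9 libraries of WT mice given NTZ served for the estimate of the spread. The methods count fewer KO/PEG mice than there are KO/PEG libraries, and it is not stated whether each library is a separate mouse. All mice were female, of BalbC background and 13 months old, and RNA came from biopsies of the corpus mucosa. Mice of the KO groups lacked both copies of the gene in every tissue from birth, and NTZ or PEG was injected under the skin from young age on, so that KO/NTZ mice were never measured before treatment. A gene described here as returned is one for which KO/NTZ mice lay nearer to WT/PEG mice than KO/PEG mice did.

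The beta subunit is one of the subunits of the proton pump by which parietal cells of the stomach corpus secrete hydrochloric acid. Without the pump there is little acid, and the antral G cells, which acid normally restrains, release more gastrin. Gastrin acts through the CCKB receptor (Cckbr) on enterochromaffin-like (ECL) cells, which make histamine from histidine with histidine decarboxylase (Hdc), and also acts as a growth factor for the corpus mucosa. In a corpus that loses its mature parietal and chief cells, glands can take on features of mucous neck cells and of antral glands, a change called spasmolytic polypeptide-expressing metaplasia (SPEM), after the trefoil factor Tff2.

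Atp4b, the gene of the beta subunit (ENSMUSG00000031449, chromosome 8 of GRCm38 from 13386205 to 13396825, minus strand), was counted first to check the labels. It had 2879 to 5760.3 CPM (median 3832) in WT/PEG, 2.34 to 17.2 CPM (median 5.61) in KO/PEG and 4.20 to 40.5 CPM (median 7.49) in KO/NTZ, where CPM are counts scaled to the TMM-normalized size of each library. All 11 KO/NTZ libraries were below every WT/PEG library, with a log2 fold change of -8.29 ± 0.29 (SE). Atp4b remained far below WT in the KO mice whether or not they were given NTZ.

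Each library held between 6065084 and 21945124 estimated reads, with a median of 12279913 in KO/NTZ and 12285692 in WT/PEG, and 3 reads, taken as the smallest signal, corresponded to 0.137 to 0.495 CPM, which covers counting error only. Reads were summed over the transcripts of each gene, and 14911 of 31517 genes were tested. The libraries of the compared groups also differed in other ways. Each transcript's log2 count, scaled to the library total, was set against its mean over all 44 libraries. The slope of this difference on the log2 transcript length was taken for each library. It measures how strongly long transcripts are represented relative to the whole series. It ran from 0.108 to 0.362 in WT/PEG and from -0.399 to -0.0578 in KO/NTZ, so that no libraries overlapped. WT/NTZ libraries had slopes of 0.0941 to 0.282, like WT/PEG. The share of reads from genes of the mitochondrial genome was 5.81 to 11.7% in WT/PEG and 1.85 to 7% in KO/NTZ. The labels carry a number for each library, and what it stands for is not stated. The numbers were 100 or above in all 11 WT/PEG libraries, a pair of which share a number, and below 100 in 10 of the 11 KO/NTZ libraries. In WT/NTZ the slope was 0.175 to 0.282 in the 5 numbered below 100 and 0.0941 to 0.230 in the 4 numbered 100 or above. In KO/PEG it was -0.399 to 0.225 in the 6 numbered below 100 and -0.396 to 0.00542 in the 7 numbered 100 or above. Between the compared groups themselves, genotype with treatment, label number and length slope cannot be told apart. A fit that removed the length trend of each library, called length-corrected below, was therefore run as well. Where it changed a named gene's call against WT/PEG, its value is given beside the first. KO/PEG library 46 stood apart from the other KO/PEG libraries, with a slope of 0.225 and a mitochondrial share of 14.4%. The defining corpus genes Pgc and Atp4a were present in every library, and Gast, the gastrin gene of the antrum, did not pass the filter on low counts.

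KO/NTZ mice differed from WT/PEG mice in most genes. Of the 14911 genes tested, 5700 (38.2%) were higher and 5772 (38.7%) were lower in KO/NTZ at a threshold of 0.05 on the adjusted p of edgeR. The difference was at least 2-fold in 2536 of the higher and 2486 of the lower genes. A second test asked whether a gene lay within 1.5-fold of WT/PEG, by a pair of one-sided tests, since a difference that misses the threshold does not show that the levels are the same. It found 3017 genes (20.2%) within 1.5-fold, of which 1220 also differed at the threshold by a smaller amount, and 1642 genes were placed by neither test. The median log2 fold change over all genes was -0.01.

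To see what could come back, genes were first picked by KO/PEG against WT/PEG. In that comparison 4058 genes (27.2% of those tested) differed at the threshold and by at least 2-fold, 2146 of them higher and 1912 lower in KO/PEG, and these are called displaced. The KO/PEG and KO/NTZ comparisons share the WT/PEG libraries, so the classes below describe each gene's values in the 3 groups and are not independent of one another. Of the displaced genes, 3582 (88.3%) were away and unmoved, that is, over 1.5-fold from WT/PEG in KO/NTZ on the same side, with no difference called between KO/NTZ and KO/PEG. A further 3.18% were farther from WT/PEG in KO/NTZ than in KO/PEG, and 106 (2.61%) were away but partly returned. In 6 genes (0.148%) KO/NTZ overshot to the other side of WT/PEG, and 234 genes (5.77%) were undecided. A single gene, Hspb6, was back by both tests, and 0 displaced genes were near WT/PEG without a called return. Of the displaced genes, 82 differed between KO/NTZ and KO/PEG in the direction of WT/PEG and not between KO/NTZ and WT/PEG, and they are called returned and not called. Hspb6 is among them, and the others were undecided. By edgeR, KO/NTZ and KO/PEG differed in 450 genes (3.02%) higher and 401 genes (2.69%) lower in KO/NTZ over all genes tested. The counts for each gene list below are to be read against the shares given above for all genes and for all displaced genes.

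Displaced genes were mostly held in treated KO mice. Their median absolute log2 fold change was 1.45 in KO/PEG and 1.62 in KO/NTZ, and KO/NTZ was the closer of both to WT/PEG for 1314 of 4058 genes (32.4%). Every KO/NTZ library was outside the range of the 11 WT/PEG libraries in 2556 displaced genes (63.0%), against 4942 (33.1%) of all genes tested. With the length trend removed, 2961 genes were displaced and 2371 of these were away and unmoved. The count of genes farther from WT/PEG rested on single libraries and ran from 63 without KO/NTZ library 30 to 379 without KO/NTZ library 25, and it was 45 without KO/PEG libraries 46 and 52.

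**Figure D1:**
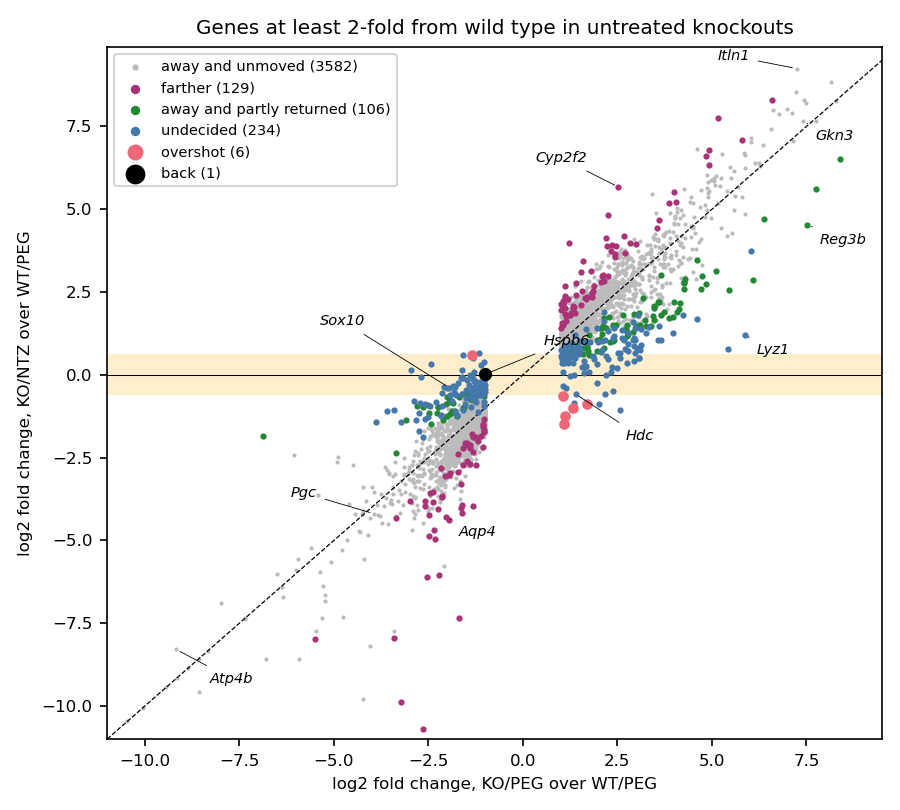
Each point is one of the 4058 genes displaced in KO/PEG, with its log2 fold change in KO/PEG over WT/PEG on the x axis and in KO/NTZ over WT/PEG on the y axis, coloured by class. The dashed line marks equal values and the shaded band 1.5-fold around WT/PEG. Most points lie along the dashed line, and Hspb6 is the one gene called back inside the band.

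Single libraries were also set against the range of the WT/PEG libraries. The displaced genes were picked from the KO/PEG and WT/PEG values, so a low share in KO/PEG follows from that choice. The share of the displaced genes that fell inside the range of the WT/PEG libraries was 11.1 to 21% in the KO/NTZ libraries, with a median of 13.2%, and 7.39 to 43.1% in the KO/PEG libraries, with a median of 15.6%. The highest KO/PEG value was library 46, and the next highest was 17.6%. In WT/NTZ libraries the share was 50.5 to 90.7%, with a median of 83.6%. The highest KO/NTZ library was below the lowest WT/NTZ library.

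**Figure D2:**
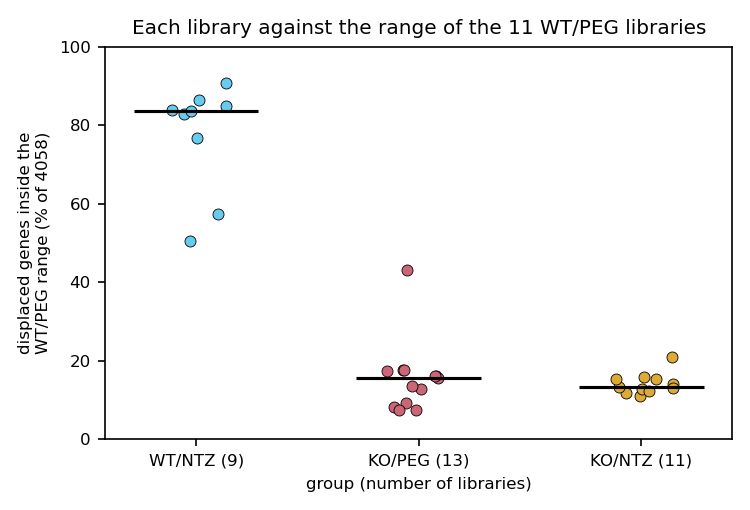
Each point is a library, and the y axis is the percentage of the 4058 displaced genes whose CPM fell inside the range of the 11 WT/PEG libraries, by group. Bars mark the medians (83.6% for WT/NTZ, 15.6% for KO/PEG, 13.2% for KO/NTZ), and points are spread sideways only so that they can be seen.

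Hspb6, the small heat shock protein of smooth muscle (chromosome 7 of GRCm38 from 30552178 to 30555443), had 10.2 to 18.3 CPM (median 14.4) in WT/PEG, 3.73 to 11.3 CPM (median 6.67) in KO/PEG and 5.88 to 21.6 CPM (median 15) in KO/NTZ. KO/NTZ libraries spread around the WT/PEG libraries, with 5 of 11 inside their range, and KO/PEG libraries were lower. The log2 fold change of KO/NTZ over WT/PEG was 0.01 ± 0.19 (SE). Its difference in KO/PEG was -1.01 on the log2 scale, just past the limit of 1, and the gene was called back in 26 of 46 other fits, and in 19 it fell short of being displaced. With the length trend removed Hspb6 was called lower in KO/NTZ than in WT/PEG, at -0.54 (adjusted p = 0.015).

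Some genes of ECL cells moved toward WT/PEG or past it under NTZ, while others stayed away. The list of ECL and other endocrine cell genes had 32 tested members, of which 12 were displaced in KO/PEG, and of these 4 were away and unmoved, 3 partly returned and 5 undecided. KO/NTZ differed from KO/PEG in 14 of the 32, with 5 higher and 9 lower, against 3.02 and 2.69% of all genes. Against WT/PEG, 8 of the 32 were higher, 14 lower and 4 within 1.5-fold, with a median log2 fold change of -0.21 against -0.01 over all genes. The length-corrected fit gave 6 higher and 18 lower.

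The 250 bases before the start of the genes for 4 of these returned members are shown with those of Muc6, a neck cell mucin that stayed high, so that the upstream sequence of genes that did and did not come down can be read side by side. The starts are those of RefSeq, and the stretches of Hdc and Chgb lie inside the genes as GENCODE vM21 places them. The sequences are from RefSeq on GRCm38.p6, 5′ to 3′ on the strand of the gene, and capitals mark matches to TGACG (the core of the cyclic AMP response element), GGGCGG (the GC box) and CACGTG (an E-box), searched on both strands.
Hdc, chr2:126618679-126618928, minus strand: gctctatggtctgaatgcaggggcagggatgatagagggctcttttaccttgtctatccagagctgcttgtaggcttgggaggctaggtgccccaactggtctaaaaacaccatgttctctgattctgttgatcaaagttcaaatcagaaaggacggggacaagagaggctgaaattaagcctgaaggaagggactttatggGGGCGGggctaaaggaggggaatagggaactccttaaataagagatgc
Chga, chr12:102554691-102554940, plus strand: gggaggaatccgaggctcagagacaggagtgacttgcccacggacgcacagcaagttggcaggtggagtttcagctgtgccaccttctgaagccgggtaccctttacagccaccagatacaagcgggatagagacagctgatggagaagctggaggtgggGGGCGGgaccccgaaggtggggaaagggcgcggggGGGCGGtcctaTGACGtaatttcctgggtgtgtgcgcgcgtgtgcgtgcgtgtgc
Chgb, chr2:132781392-132781641, plus strand: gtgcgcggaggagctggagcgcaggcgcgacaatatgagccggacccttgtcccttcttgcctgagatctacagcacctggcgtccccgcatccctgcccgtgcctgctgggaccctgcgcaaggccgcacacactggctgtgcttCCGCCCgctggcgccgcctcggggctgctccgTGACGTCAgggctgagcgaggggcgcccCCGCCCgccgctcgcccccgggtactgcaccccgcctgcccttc
Cckbr, chr7:105425481-105425730, plus strand: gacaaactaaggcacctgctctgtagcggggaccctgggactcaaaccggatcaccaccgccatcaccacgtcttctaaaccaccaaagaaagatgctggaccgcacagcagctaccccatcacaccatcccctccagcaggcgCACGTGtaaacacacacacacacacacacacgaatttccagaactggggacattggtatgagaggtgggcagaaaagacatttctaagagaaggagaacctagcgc
Muc6, chr7:141655394-141655643, minus strand: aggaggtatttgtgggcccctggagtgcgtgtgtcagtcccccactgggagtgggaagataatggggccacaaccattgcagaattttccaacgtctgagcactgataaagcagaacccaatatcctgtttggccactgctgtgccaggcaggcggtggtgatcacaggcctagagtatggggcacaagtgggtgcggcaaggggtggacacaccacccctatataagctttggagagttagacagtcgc
Hdc held 1 GC box from 48 to 43 bases before the start. Chga held 2 GC boxes and 1 TGACG from 44 to 40 bases before the start. In Chgb the matches to TGACG were 2, one on each strand, and they overlap by 2 bases, from 72 to 65 bases before the start, and 2 GC boxes lay on the other strand. Cckbr held 1 CACGTG and Muc6 held 0 matches to any of the motifs. Of 32851 promoters of this length, 17.8% held TGACG, 32.7% GGGCGG and 6.02% CACGTG, so the matches are common and are given only as a description of these letters.

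Hdc, which makes histamine, was higher than WT in untreated KO mice and slightly lower than WT in treated ones. It had 14.7 to 56.3 CPM (median 23.4) in WT/PEG, 32.6 to 114 CPM (median 69.8) in KO/PEG and 11.5 to 32.7 CPM (median 14.9) in KO/NTZ. Of the KO/NTZ libraries 8 of 11 were inside the WT/PEG range and 3 below it. The log2 fold change of KO/NTZ over WT/PEG was -0.58 ± 0.22 (SE, adjusted p = 0.016), and that over KO/PEG was -1.97 (adjusted p = 1.1e-07). With this difference just under 1.5-fold Hdc was undecided, and in 12 of 46 other fits, among them that with the length trend removed, it was past 1.5-fold and among the overshot genes.

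Chga, which encodes chromogranin A of secretory granules, was the most abundant of the returned endocrine genes. It had 369.6 to 782 CPM (median 429.5) in WT/PEG, 682 to 2279 CPM (median 1670.4) in KO/PEG and 527 to 791 CPM (median 647) in KO/NTZ. Of the KO/PEG libraries 12 of 13 were above every WT/PEG library, while 10 of 11 KO/NTZ libraries were inside the WT/PEG range. KO/NTZ remained higher than WT/PEG by 0.41 ± 0.16 (SE, adjusted p = 0.017) and had a log2 fold change of -1.22 over KO/PEG. Chga was back in the length-corrected fit, at 0.12. Chgb, the related chromogranin B, had 23 to 55.5 CPM (median 29.9) in WT/PEG, 28.3 to 123 CPM (median 72.2) in KO/PEG and 12.5 to 35.4 CPM (median 24.5) in KO/NTZ. Its log2 fold change of KO/NTZ over WT/PEG was -0.38 ± 0.18 (SE, adjusted p = 0.044), and this call was lost in 20 of 46 other fits, with -0.33 in the length-corrected one and an adjusted p of 0.14 without the library labelled WT_129_WT_PEG.

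Vgf, another granule protein, had 0.108 to 1.26 CPM (median 0.951) in WT/PEG, 1.2 to 9.45 CPM (median 6.18) in KO/PEG and 0.417 to 2.74 CPM (median 1.17) in KO/NTZ, a log2 fold change of 0.72 ± 0.35 (SE, adjusted p = 0.058) over WT/PEG. Cckbr, the receptor that NTZ blocks, had 2.95 to 10.2 CPM (median 5.99) in WT/PEG, 8.51 to 31 CPM (median 18.7) in KO/PEG and 4.45 to 16 CPM (median 8.62) in KO/NTZ. It was partly returned, with a log2 fold change of -0.98 over KO/PEG, and still higher than in WT/PEG by 0.62 ± 0.22 (SE, adjusted p = 0.010). With only the KO libraries numbered below 100, Cckbr was away and unmoved, and without the library labelled WT_120_WT_PEG or WT121_WT_PEG, or without KO/NTZ library 25, 26 or 27, its KO/NTZ level was undecided.

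Other ECL cell genes did not differ from WT/PEG at the threshold in untreated KO mice and were below it under NTZ. Slc18a2, the vesicular monoamine transporter that loads histamine into granules, had 27.9 to 48.3 CPM (median 36.2) in WT/PEG, 9.26 to 51 CPM (median 30.2) in KO/PEG and 8.54 to 31.4 CPM (median 15) in KO/NTZ. Every WT/PEG library was above 9 of the 11 KO/NTZ libraries. Its log2 fold change over WT/PEG was -1.08 ± 0.21 (SE, adjusted p = 2.4e-05). Pcsk1, a prohormone convertase, was at -1.3 ± 0.24 (SE) on the same scale and at -1.66 over KO/PEG. The inhibitor of that convertase, Pcsk1n, went the other way: it had 3.39 to 8.62 CPM (median 5.63) in WT/PEG, 1.51 to 12.5 CPM (median 4.29) in KO/PEG and 5.09 to 33.3 CPM (median 16.6) in KO/NTZ, a log2 fold change of 1.68 ± 0.28 (SE, adjusted p = 1.2e-06) over WT/PEG.

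Among genes of other endocrine cells, Sst, the somatostatin of D cells, had 290.3 to 608 CPM (median 379) in WT/PEG, 36.2 to 427 CPM (median 202) in KO/PEG and 217 to 819 CPM (median 339) in KO/NTZ. KO/NTZ libraries overlapped those of WT/PEG, with 6 of 11 inside their range and a log2 fold change of -0.12 ± 0.28 (SE, 95% interval -0.68 to 0.44). Its difference in KO/PEG was -1.01, just past the limit, and in 19 of 46 other fits Sst was not displaced. In the length-corrected fit Sst was lower than WT/PEG, at -1.02 (adjusted p = 4.4e-04), and partly returned. Ghrl, the ghrelin of X/A-like cells, was 0.75 ± 0.13 (SE) higher than WT/PEG and Mboat4, which acylates ghrelin, 0.81 ± 0.14 (SE) higher, but with the length trend removed Ghrl was lower, at -0.34. Tph1, which makes serotonin, was away and unmoved at 1.48 ± 0.23 (SE). Scg2, Ptprn2 and Sstr2, a granule protein, a granule membrane protein and the somatostatin receptor of ECL cells, were lower than WT/PEG by 1.22, 1.81 and 1.66 on the log2 scale and were away and unmoved. Ptprn, Cpe, Eno2 and Resp18 were within 1.5-fold of WT/PEG. Ptprn was called higher in the length-corrected fit, at 0.36, and Cpe lower, at -0.35. Resp18 had a log2 fold change of 0.17 ± 0.13 (SE), which became -0.83.

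**Figure D3:**
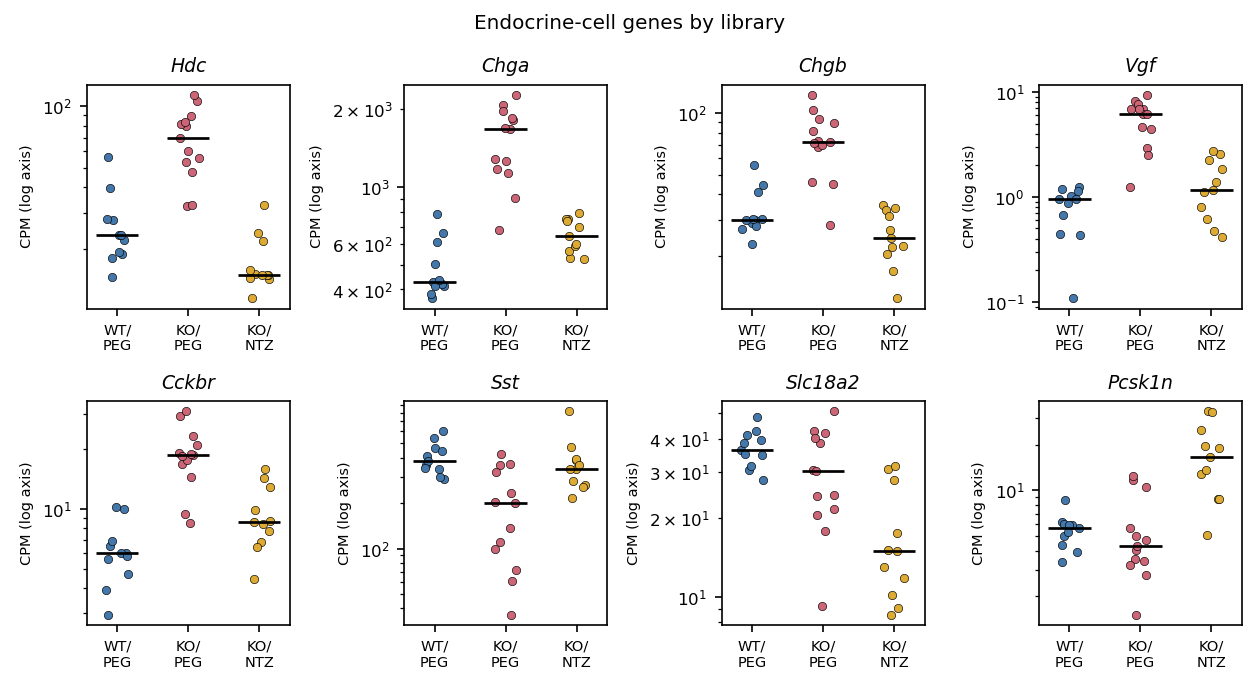
CPM of 8 endocrine-cell genes on log axes, one point per library, for WT/PEG, KO/PEG and KO/NTZ, with bars at the medians. In Hdc, Chga, Chgb, Vgf and Cckbr the KO/PEG medians are high and the KO/NTZ medians are closer to those of WT/PEG. The KO/NTZ median of Sst lies between those of KO/PEG and WT/PEG. Slc18a2 lies below WT/PEG in most KO/NTZ libraries and Pcsk1n lies above.

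Reg lectins and growth genes linked to gastrin came down part of the way. Of 16 tested members of the list, 9 were displaced, all higher in KO/PEG, and 6 of these were partly returned and 3 away and unmoved. KO/NTZ was lower than KO/PEG in 8 of the 16 and higher in 0. Against WT/PEG 10 were higher and 3 lower, with a median log2 fold change of 0.89. Without KO/PEG libraries 46 and 52, 4 were partly returned. Reg3b, a C-type lectin against bacteria, had 0 to 0.560 CPM (median 0) in WT/PEG, 3.49 to 155 CPM (median 7.09) in KO/PEG and 0.154 to 5.84 CPM (median 2.74) in KO/NTZ, and 9 of 11 KO/NTZ libraries were above every WT/PEG library, all of which were near or under the smallest signal. Its near copy Reg3g, with which it may share reads, had 3.76 to 23.8 CPM (median 5.84) in KO/NTZ against 0 to 0.616 CPM (median 0.108) in WT/PEG. Reg1, the regenerating protein that gastrin is known to induce in ECL cells, had 1.47 to 5.16 CPM (median 2.38) in WT/PEG, 5.47 to 66.1 CPM (median 10.6) in KO/PEG and 2.25 to 12.6 CPM (median 6.93) in KO/NTZ, with 1.246 ± 0.36 (SE) over WT/PEG and -1.53 over KO/PEG on the log2 scale. With the length trend removed Reg1 was at 0.39 over WT/PEG (adjusted p = 0.42) and undecided.

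The ligands of the epidermal growth factor receptor were split. Areg and Hbegf were away and unmoved, higher than WT/PEG by 1.68 ± 0.23 (SE) and 1.06 ± 0.14 (SE). Ereg and Btc were lower, by 1.68 and 1.20 on the log2 scale, and Tgfa lay within 1.5-fold at -0.19 ± 0.11 (SE), or at 0.33 with the length trend removed. Plaur, the urokinase receptor, was away and unmoved at 2.55 ± 0.23 (SE) and partly returned in the length-corrected fit, whereas Plat, the tissue plasminogen activator, was partly returned at 0.72 ± 0.26 (SE) and unmoved without KO/PEG libraries 46 and 52. Pappa2, a protease of insulin-like growth factor binding proteins, had 4.05 to 17.6 CPM (median 8.22) in WT/PEG, 3.99 to 28 CPM (median 14.3) in KO/PEG and 1.54 to 8.78 CPM (median 3.34) in KO/NTZ and so was lower than WT/PEG, with a log2 fold change of -1.24 ± 0.28 (SE, adjusted p = 1.5e-04) that the length-corrected fit reduced to -0.35 (adjusted p = 0.17). Mcl1, a survival factor that gastrin is known to induce, lay within 1.5-fold of WT/PEG at 0.02 ± 0.06 (SE), or called higher at 0.30 in that fit.

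Genes of plasma proteins that the liver is known for also moved with NTZ. Of 20 tested members of the list 8 were displaced, of which 4 were away and unmoved, 1 partly returned, 1 overshot and 2 undecided, and KO/NTZ was lower than KO/PEG in 6 of the 20 and higher in 1. The list includes Tfrc, the transferrin receptor described below, which is not a plasma protein and is among the 6 that were lower. Ahsg, the fetuin A gene, overshot: it had 1.07 to 5.51 CPM (median 2.85) in WT/PEG, 3.66 to 13.9 CPM (median 6.16) in KO/PEG and 0.171 to 2.55 CPM (median 1.16) in KO/NTZ, a log2 fold change of -1.48 ± 0.32 (SE) over WT/PEG, and it was in this class in 43 of 46 other fits. It was not displaced in the length-corrected fit, with only KO libraries numbered below 100, or without KO/PEG library KO_126_KO_PEG. Gc, the vitamin D binding protein, had 7.57 to 21.7 CPM (median 10.1) in WT/PEG, 9.05 to 38.5 CPM (median 22.7) in KO/PEG and 1.82 to 5.90 CPM (median 3.68) in KO/NTZ. All 11 KO/NTZ libraries were below every WT/PEG library, with a log2 fold change of -1.66 ± 0.24 (SE), and with 1.0 in KO/PEG the gene fell just short of being displaced. In 18 of 46 other fits Gc was displaced and overshot. Vtn, vitronectin, had 11.2 to 30.9 CPM (median 18.7) in WT/PEG, 21.2 to 67.2 CPM (median 35.0) in KO/PEG and 9.18 to 22.8 CPM (median 17.4) in KO/NTZ, and lay at -0.33 ± 0.21 (SE, adjusted p = 0.14) from WT/PEG, whereas the length-corrected fit called it lower, at -0.78 (adjusted p = 8.8e-04), as did voom, at -0.46 (adjusted p = 0.042). Agt, angiotensinogen, was partly returned at 1.5 ± 0.17 (SE), and Itih2 was away and unmoved at 4.59 ± 0.29 (SE). Alb, which marks hepatocytes, was at 0.967 to 3.72 CPM (median 2.04) in WT/PEG and 3.60 to 9.96 CPM (median 6.29) in KO/NTZ.

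In 1 gene KO/NTZ was called at least 2-fold from WT/PEG and also called different from KO/PEG in the same direction. KO/PEG was within 1.5-fold of WT/PEG in that gene. Tfrc, the transferrin receptor by which cells take up iron (chromosome 16 of GRCm38 from 32608920 to 32632794), had 88.9 to 199 CPM (median 125) in WT/PEG, 75.8 to 260.1 CPM (median 119) in KO/PEG and 45.9 to 86 CPM (median 59.6) in KO/NTZ. All 11 KO/NTZ libraries were below every WT/PEG library, and the log2 fold change was -1.05 ± 0.17 (SE, adjusted p = 1.0e-06) over WT/PEG and -1.08 (adjusted p = 5.2e-05) over KO/PEG. The class held in 43 of 46 other fits, and not in the length-corrected fit, with only KO libraries numbered below 100, or without the library labelled WT_129_WT_PEG. Thbs1, thrombospondin 1, a matrix protein that limits vessel growth, was the overshot gene that reached a mean of 10 CPM. It had 16.4 to 41.7 CPM (median 22.9) in WT/PEG, 13.5 to 125 CPM (median 50.5) in KO/PEG and 7.20 to 26.8 CPM (median 14.1) in KO/NTZ, a log2 fold change of -0.64 ± 0.26 (SE, adjusted p = 0.025) over WT/PEG, and it was in this class in 37 of 46 other fits. In the length-corrected fit Thbs1 was back, at 0.041.

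Parietal cell genes stayed low. Of 22 tested members of the list, 20 were lower and 2 higher in KO/NTZ than in WT/PEG, with a median log2 fold change of -1.34, and their summed level ran from 12310 to 17330 CPM in WT/PEG and from 6610 to 10020 CPM in KO/NTZ without overlap. In such bulk tissue, fewer cells of a type and less RNA per cell cannot be told apart. Of the 11 displaced members 9 were away and unmoved and 2, Aqp4 and Clic6, were farther. Atp4a, the catalytic subunit of the proton pump, had 6176 to 9328 CPM (median 8160.1) in WT/PEG, 1928 to 7024 CPM (median 3576) in KO/PEG and 1917 to 4652 CPM (median 3007) in KO/NTZ, a log2 fold change of -1.37 ± 0.18 (SE), and was still abundant. Esrrg and Slc26a7, an orphan nuclear receptor of parietal cells and a chloride-bicarbonate exchanger, were lower by 3.69 and 3.78. Hrh2, the receptor by which histamine drives acid secretion, had 16.3 to 23.9 CPM (median 20.8) in WT/PEG and 1.08 to 3.78 CPM (median 1.96) in KO/NTZ, a log2 fold change of -3.30 ± 0.22 (SE).

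The water channel Aqp4 of the basolateral parietal cell membrane went farther from WT/PEG under NTZ. It had 14.1 to 44.3 CPM (median 20.5) in WT/PEG, 0.215 to 21.7 CPM (median 3.14) in KO/PEG and 0 to 3.52 CPM (median 0.588) in KO/NTZ, so that every KO/NTZ library was below every WT/PEG library, and the log2 fold change of KO/NTZ over KO/PEG was -2.28 (adjusted p = 0.0063). Kcnq1, the potassium channel that feeds the pump, was at a log2 fold change of -0.11 in KO/PEG and -0.69 ± 0.12 (SE) in KO/NTZ, lower than in KO/PEG by the test (adjusted p = 0.0017). Car2 and Ndrg1 were the members higher than WT/PEG, by 0.40 ± 0.12 (SE) and 0.77 ± 0.13 (SE). In the length-corrected fit 19 members were lower and 1 higher, and Car2 was at 0.063 with no call. Atp4a was not displaced in 35 of 46 other fits, among them the length-corrected one, in which it was lower than WT/PEG.

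Chief cell genes were the most reduced by amount. Of 15 tested members, 10 were lower and 5 higher than WT/PEG in KO/NTZ, and all 11 displaced members were away and unmoved. Pgc, pepsinogen C (chromosome 17 of GRCm38 from 47726842 to 47734482), had 84243 to 201972 CPM (median 153702) in WT/PEG, 1809.6 to 30833 CPM (median 8318) in KO/PEG and 2559 to 18407 CPM (median 6668) in KO/NTZ, and every KO/NTZ library was below every WT/PEG library, with a log2 fold change of -4.19 ± 0.39 (SE, adjusted p = 5.9e-11). The gene labelled Gif, the intrinsic factor that mouse chief cells secrete, had 4113 to 7275 CPM (median 6135) in WT/PEG and 51.2 to 2359 CPM (median 395) in KO/NTZ, and Bhlha15, the transcription factor Mist1 of mature chief cells, was lower by 1.82 on the log2 scale. Chia1, an acidic chitinase, was lower by 3.02 with a wide error (SE 0.84). Against this direction, Cym, the milk-clotting chymosin, had 20.1 to 1234 CPM (median 113) in WT/PEG, 408 to 19416 CPM (median 5055) in KO/PEG and 718 to 8529 CPM (median 2901) in KO/NTZ, and Pga5, another pepsinogen, was higher by 1.45 ± 0.40 (SE). The summed level of the list was 116900 to 290500 CPM in WT/PEG and 6047 to 43460 CPM in KO/NTZ.

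Surface mucous cell genes moved both ways. Of 18 tested, 9 were lower, 6 higher and 3 within 1.5-fold of WT/PEG. Gkn1 and Gkn2, the gastrokines, were lower by 1.29 and 1.34 on the log2 scale and unmoved from KO/PEG, and Muc5ac, the surface mucin, by 1.83. Muc5ac had 2151 to 5827 CPM (median 5050.3) in WT/PEG and 217 to 3412 CPM (median 929.8) in KO/NTZ. The keratins Krt8, Krt18 and Krt19 and the membrane mucin Muc1 were higher by 1.43, 1.58, 1.62 and 1.26. Ctse, Anxa10 and Cldn18, an aspartic protease, an annexin and the tight junction protein of stomach epithelium, lay within 1.5-fold of WT/PEG, but the length-corrected fit called Ctse lower, at -0.27. Tff1, the surface trefoil factor, had a log2 fold change of 0.10 ± 0.23 (SE) with 10549 to 43271 CPM (median 19708) in KO/NTZ, and -0.85 with the length trend removed, under which Anxa10 was at -0.33. Muc5ac, Muc1 and the keratins Krt8, Krt18 and Krt19 kept their direction in that fit and were not displaced.

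Mucous neck and SPEM genes stayed high. Of 18 tested members 16 were higher and 1, Cd24a, lower in KO/NTZ than in WT/PEG, with a median log2 fold change of 3.82 against -0.01 over all genes. Of the 15 displaced members, 13 were away and unmoved and 2 undecided, against 88.3 and 5.77% of all displaced genes. The summed level ran from 3771 to 5004 CPM in WT/PEG, 16650 to 74970 CPM in KO/PEG and 23510 to 79160 CPM in KO/NTZ. Muc6, the gland mucin (chromosome 7 of GRCm38 from 141633456 to 141655319), had 63.1 to 328 CPM (median 231) in WT/PEG, 182 to 7609 CPM (median 2212) in KO/PEG and 1796 to 7795 CPM (median 3746) in KO/NTZ, a log2 fold change of 4.35 ± 0.41 (SE, adjusted p = 1.5e-10) over WT/PEG. Tff2 had 598 to 1328 CPM (median 917) in WT/PEG and 6787 to 30061 CPM (median 12740.1) in KO/NTZ, and Clu, clusterin, 764 to 1312 CPM (median 1059) and 7123 to 21067 CPM (median 11902). In all 3 genes every KO/NTZ library was above every WT/PEG library.

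Pigr, the receptor that carries IgA across epithelium, Gkn3, a gastrokine of neck cells, and Aqp5, the water channel of antral glands, were far above WT/PEG. Pigr had 6.36 to 40.1 CPM (median 10.03) in WT/PEG, 778 to 5649 CPM (median 2186) in KO/PEG and 917 to 4617 CPM (median 2411) in KO/NTZ. Its log2 fold change over WT/PEG was 7.06 ± 0.46 (SE) and that of Gkn3 7.65 ± 0.43 (SE). Aqp5 had 0.0856 to 1.61 CPM (median 0.431) in WT/PEG and 33.3 to 365 CPM (median 119) in KO/NTZ. Cd44, a SPEM-associated adhesion molecule, was higher by 0.60 ± 0.21 (SE). Lcn2, the iron-sequestering lipocalin, came down and was close to the smallest signal in WT/PEG. It had 0 to 0.425 CPM (median 0.257) in WT/PEG, 0.346 to 21.1 CPM (median 1.32) in KO/PEG and 0.0782 to 1.20 CPM (median 0.517) in KO/NTZ, with 1.06 ± 0.66 (SE, adjusted p = 0.13) over WT/PEG.

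**Figure D4:**
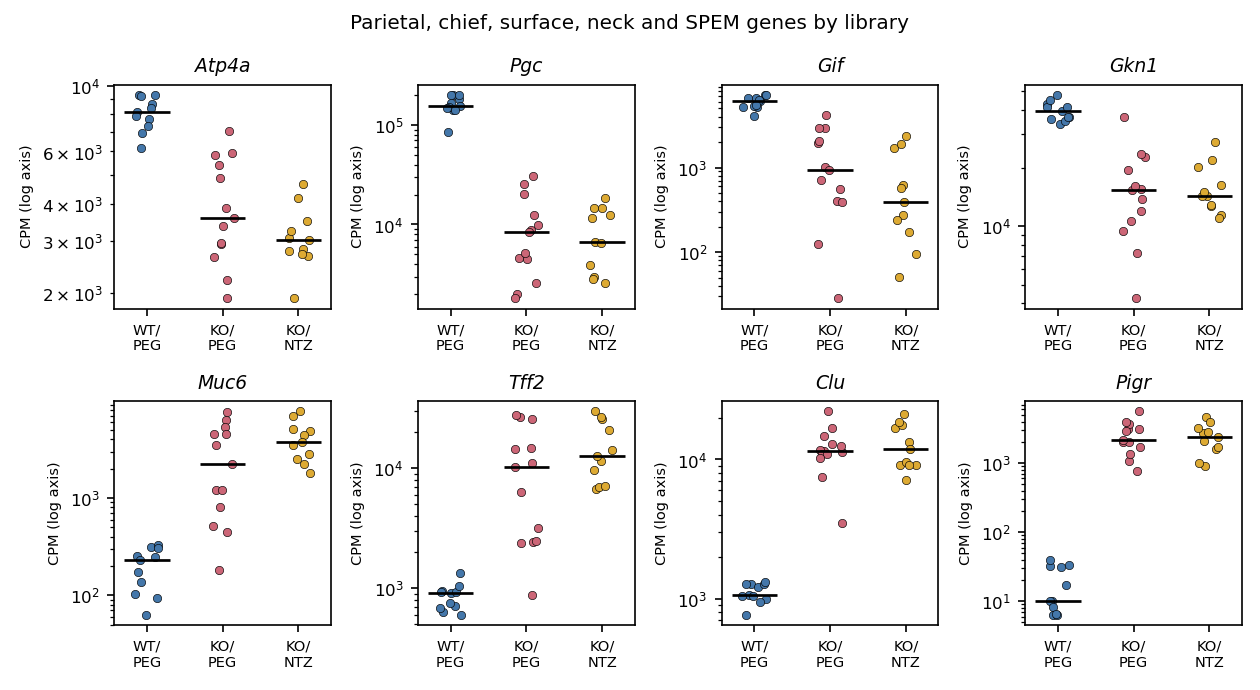
CPM of 8 epithelial genes on log axes, one point per library, for WT/PEG, KO/PEG and KO/NTZ, with bars at the medians. Atp4a, Pgc, Gif and Gkn1 lie below WT/PEG in the KO/NTZ libraries, and Muc6, Tff2, Clu and Pigr lie above every WT/PEG library in all 11.

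The study took SPEM-related genes from earlier publications and looked them up in these same samples. Whether the 38 it listed were also picked by their values here is not stated, so their direction is not taken as independent evidence. In KO/NTZ, 30 were higher and 5 lower than WT/PEG. Of the 28 displaced, 23 were away and unmoved, 4 were partly returned and 1 was undecided. The 4 were Mmp12, a macrophage elastase, Itga2, a collagen-binding integrin, and the mucins Muc5b and Muc13. Muc13 had 0.257 to 3.53 CPM (median 0.687) in WT/PEG, 6.88 to 107 CPM (median 16.7) in KO/PEG and 2.23 to 14.6 CPM (median 7.0) in KO/NTZ. Itga2 was away and unmoved without KO/PEG libraries 46 and 52.

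Genes typical of intestinal epithelium were mostly higher as well. Of 20 tested, 15 were higher and 3 lower than WT/PEG. Of the 15 displaced, 12 were away and unmoved, 2 partly returned and 1 undecided. The defining genes Cdx1, Cdx2, Muc2 and Sis did not pass the filter on low counts. Clca1, a goblet cell protease, had 2.26 to 40.7 CPM (median 8.56) in WT/PEG and 1790.5 to 4782 CPM (median 2869) in KO/NTZ, a log2 fold change of 7.99 ± 0.49 (SE), and Spink4, a trypsin inhibitor of mucus cells, was higher by 5.94 ± 0.33 (SE). Vnn1, a pantetheinase, was partly returned: it had 1.29 to 5.0 CPM (median 3.26) in WT/PEG, 30.7 to 196 CPM (median 64.2) in KO/PEG and 15 to 40.4 CPM (median 27.6) in KO/NTZ. Olfm4, a marker of intestinal stem cells, had 4.88 to 10.2 CPM (median 7.71) in WT/PEG, 3.01 to 79.8 CPM (median 11.6) in KO/PEG and 0 to 10.7 CPM (median 3.05) in KO/NTZ, with -0.86 ± 0.47 (SE, adjusted p = 0.091) over WT/PEG, and was called lower, at -1.245, and overshot with the length trend removed. That fit left 11 of the list higher and 4 lower.

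The genes highest above WT/PEG were named by a rule on the fold change and a mean of at least 10 CPM. Itln1, the mucus lectin intelectin 1, led with 0.354 to 16.5 CPM (median 3.0) in WT/PEG, 0.741 to 2813 CPM (median 253) in KO/PEG and 711 to 4783 CPM (median 2751) in KO/NTZ, a log2 fold change of 9.25 ± 0.72 (SE). Chil4, a chitinase-like protein with near-identical copies, followed at 8.55 ± 0.73 (SE). Sftpd, the collectin surfactant protein D, had 0 to 1.23 CPM (median 0.200) in WT/PEG and 49.99 to 145 CPM (median 104) in KO/NTZ. Wfdc18, Tmem213 and Bpifb5 were higher by 8.29, 8.22 and 7.16, from WT/PEG levels at or near 0. With Aqp5, Clca1, Gkn3 and Pigr these are the 10 genes the rule named, and in none of the 10 did KO/NTZ differ from KO/PEG at the threshold in the edgeR fit (adjusted p from 0.060 for Itln1 to 0.92 for Pigr). In other fits Itln1 was farther from WT/PEG in 7 of 46, Clca1 in 6 and Bpifb5 in 3. Wfdc18, Tmem213 and Aqp5 were so in 2 each and Chil4 in 1.

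At the other end, Amy2a1, a pancreatic amylase with near-identical copies, had 4.53 to 20.6 CPM (median 14.2) in WT/PEG and 0 reads in all KO/PEG and KO/NTZ libraries. Against 3 reads over all KO/NTZ libraries (0.0205 CPM), Amy2a1 was at least 657-fold lower. Pthlh, the parathyroid hormone-like protein, had 10.8 to 65.7 CPM (median 29.7) in WT/PEG and 0 to 0.947 CPM (median 0.215) in KO/NTZ. Gpm6a, a membrane glycoprotein, had 39.1 to 70.0 CPM (median 48.4) in WT/PEG and 0 to 2.26 CPM (median 0.618) in KO/NTZ, with -6.01 ± 0.30 (SE) on the log2 scale. Gpam, which starts triglyceride synthesis, and Lrp2, the endocytic receptor megalin, were lower by 4.33 and 4.28. Zfp979, Ugt1a6b and Arhgef37 were lower by 5.30, 4.75 and 4.48, Ugt1a6b being one of a cluster of genes that share exons.

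Genes that moved farther from WT/PEG under NTZ were led by H1fx, a linker histone, which had 0.616 to 1.68 CPM (median 1.20) in WT/PEG, 1.65 to 8.42 CPM (median 3.91) in KO/PEG and 3.39 to 23.6 CPM (median 9.03) in KO/NTZ. Cyp2f2, a cytochrome P450, had 0 to 3.67 CPM (median 0.268) in WT/PEG, 0 to 23.6 CPM (median 2.44) in KO/PEG and 4.85 to 113 CPM (median 35.7) in KO/NTZ, a difference between the KO groups of 3.15 on the log2 scale (adjusted p = 0.0026). Retnla, a resistin-like protein of type 2 immunity, was above KO/PEG by 1.83 and was 3.43 ± 0.46 (SE) above WT/PEG, but was not displaced in the length-corrected fit. Tacr1, the substance P receptor, was above KO/PEG by 1.56, and St3gal4, a sialyltransferase, by 0.90. Ddit4l, Plcd3 and Spef1 were also higher than in KO/PEG, by 1.11, 0.73 and 0.59. Sntb1, a syntrophin, was lower than in KO/PEG by 1.73 and, with Gpam and the surface gene Fut9, was away and unmoved without KO/PEG libraries 46 and 52. Gpam was away and unmoved in 17 of 46 other fits.

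Immune genes stayed above WT/PEG in part. For B cells, plasma cells and IgA transport, 14 of 19 tested genes were higher and 1 lower, and 13 of the 14 displaced were away and unmoved. Igha, the constant region of IgA, whose reads may be shared with other immunoglobulin genes, had 40.3 to 167 CPM (median 94.7) in WT/PEG, 857 to 4847 CPM (median 1382) in KO/PEG and 496 to 2598 CPM (median 955) in KO/NTZ. Jchain, which joins IgA dimers, was higher by 2.56 ± 0.41 (SE), and Cd79a of the B cell receptor by 3.60 ± 0.70 (SE). Under MHC class II, 7 of 10 tested genes were higher, with Cd74, the invariant chain, at 68.2 to 228 CPM (median 96.8) in WT/PEG and 168 to 386 CPM (median 243) in KO/NTZ, but with the length trend removed Cd74 was at 0.58 (adjusted p = 0.13), 4 were higher and 3 of 10 were displaced instead of 8.

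Of 22 tested macrophage and myeloid genes 14 were higher and 3 lower, and of 13 displaced 9 were away and unmoved, 2 partly returned and 2 undecided. The length-corrected fit left 6 higher and 2 lower. C1qa of the complement C1q complex was higher by 1.35 ± 0.22 (SE), and Cd14, the co-receptor for lipopolysaccharide, by 2.86 ± 0.20 (SE). Mmp12 was partly returned, with 1.10 to 4.46 CPM (median 2.17) in WT/PEG, 4.67 to 26.4 CPM (median 8.53) in KO/PEG and 2.63 to 7.45 CPM (median 4.35) in KO/NTZ, and so was Trem2, a receptor of lipid-laden macrophages, at 0.84 ± 0.22 (SE), which the length-corrected fit reduced to 0.34 (adjusted p = 0.16). The tissue macrophage genes Adgre1, Mrc1 and Cd163 were lower, by 1.03, 0.91 and 0.98 on the log2 scale, but Mrc1, at -0.54 (adjusted p = 0.061), and Cd163, at -0.69 (adjusted p = 0.055), lost the call in the length-corrected fit. Among T cell and natural killer cell genes 4 of 10 tested were higher and 1 lower, with all group means below 10 CPM (2 and 0 in the length-corrected fit). Among 29 interferon-stimulated genes 10 were higher and 1 lower. Over all genes tested 38.2% were higher, so in both lists the higher genes were near the share of all genes. Irf7, a master regulator of interferon genes, was higher by 1.47 ± 0.36 (SE).

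Stromal genes were below WT/PEG in number, but this rested on the handling of gene length. Of 30 tested fibroblast and matrix genes, 19 were lower, 3 higher and 5 within 1.5-fold, with a median log2 fold change of -0.47. With the length trend removed 10 were lower and 11 higher, with a median of 0.02. Of the 8 displaced members, 6 were away and unmoved, 1 partly returned and 1 overshot. KO/NTZ was lower than KO/PEG in 5 of the 30 and higher in 1, against 2.69 and 3.02% of all genes. Dcn, decorin, had 91.8 to 183 CPM (median 141) in WT/PEG and 8.82 to 89.7 CPM (median 43.2) in KO/NTZ, and Col3a1, a fibrillar collagen, was lower by 1.20. Col1a1 and Col4a1 were lower by 0.53 and 0.48. With the length trend removed Col1a1 had no call, at 0.19 (adjusted p = 0.17), and Col4a1 was called higher, at 0.34 (adjusted p = 0.0037). Timp1, the metalloproteinase inhibitor, stood apart as higher by 2.81 ± 0.33 (SE) and unmoved from KO/PEG.

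Smooth muscle genes were higher in KO/NTZ than in KO/PEG for 5 of 12 tested and lower for 0, and against WT/PEG 6 were lower and 1 higher, or 2 and 1 in the length-corrected fit. Their summed level was 3178 to 5308 CPM in WT/PEG, 1223 to 4599 CPM in KO/PEG and 2518 to 5502 CPM in KO/NTZ. The part of the muscle content of the biopsies in these values was not tested. Acta2, smooth muscle actin, had 726 to 1074 CPM (median 898) in WT/PEG, 311 to 763 CPM (median 493) in KO/PEG and 577 to 1296 CPM (median 852) in KO/NTZ and was within 1.5-fold of WT/PEG at -0.05 ± 0.14 (SE). Myh11, the smooth muscle myosin, was lower by 1.21, and Tagln was higher by 0.56. Both lost the call in the length-corrected fit, with Myh11 at -0.43 (adjusted p = 0.072) and Tagln at 0.11 (adjusted p = 0.52). Without KO/PEG libraries 46 and 52, 9 of the 12 were higher than in KO/PEG. Outside the lists, and chosen after their values were seen, Hmcn2, Ccdc3, Speg, Adcy5 and Dmpk were lower in KO/PEG and were returned and not called. Speg, a kinase of muscle cells, had 8.64 to 14.7 CPM (median 11.1) in WT/PEG, 2.91 to 10.9 CPM (median 5.19) in KO/PEG and 6.17 to 15.1 CPM (median 8.67) in KO/NTZ. Its log2 fold change of -0.26 ± 0.16 (SE) over WT/PEG became 0.36 with the length trend removed, as Hmcn2 went from -0.39 ± 0.24 (SE) to 0.55 and Adcy5 from -0.34 ± 0.16 (SE) to 0.53.

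Of 14 enteric nerve and glia genes tested, 9 were lower and 0 higher than WT/PEG, and KO/NTZ was higher than KO/PEG in 4 and lower in 0. Of 11 displaced members, 7 were away and unmoved, 1 partly returned and 3 returned and not called. Their summed level was 57.3 to 92.95 CPM in WT/PEG, 16.7 to 51.3 CPM in KO/PEG and 23.7 to 58.4 CPM in KO/NTZ. Prph, the neurofilament peripherin, had 4.02 to 7.97 CPM (median 6.19) in WT/PEG, 0.662 to 3.21 CPM (median 1.87) in KO/PEG and 1.24 to 9.64 CPM (median 5.46) in KO/NTZ, a log2 fold change of -0.25 ± 0.25 (SE) over WT/PEG that became -0.61 (adjusted p = 0.030) in the length-corrected fit. Sox10, the transcription factor of glia, was at -0.38 ± 0.21 (SE, adjusted p = 0.094) from WT/PEG, higher than in KO/PEG by 1.57. Nos1, the synthase of nitric oxide in inhibitory neurons, and the neurofilament Nefl stayed lower by 1.60 and 1.79. In 22 of 46 other fits Nos1 was partly returned.

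The haemoglobin genes appeared to return, and this rested on 2 libraries. All 5 blood genes were displaced upward in KO/PEG and were returned and not called in KO/NTZ. Hbb-bs, a beta globin gene with near-identical copies, had 25.7 to 148 CPM (median 95.2) in WT/PEG, 54.3 to 1893 CPM (median 127) in KO/PEG and 34.1 to 148.7 CPM (median 64.2) in KO/NTZ. With the length trend removed Hbb-bs was below WT/PEG, at -1.33 (adjusted p = 0.031). The highest KO/PEG values were in libraries 46 and 52. Without them 1 of the 5, Hba-a2, was displaced and in 0 did KO/NTZ differ from KO/PEG by edgeR. Lyz1, a lysozyme of Paneth cells that was chosen after its values were seen, had 0.108 to 4.15 CPM (median 0.599) in WT/PEG, 0.0494 to 692 CPM (median 1.20) in KO/PEG and 0.156 to 7.18 CPM (median 1.5) in KO/NTZ, with its highest KO/PEG value in library 46. Nr4a1, an immediate early gene chosen in the same way, had 6.16 to 84.6 CPM (median 12.6) in KO/PEG and 6.65 to 24.3 CPM (median 12) in KO/NTZ against 4.54 to 18.9 CPM (median 13.8) in WT/PEG, and with KO libraries numbered below 100 only it was not displaced.

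Among programmes of all cells, cell cycle genes were mixed. Of 34 tested, 13 were higher, 8 lower and 7 within 1.5-fold of WT/PEG, against 38.2, 38.7 and 20.2% of all genes. KO/NTZ was higher than KO/PEG in 5 and lower in 0, against 3.02 and 2.69% of all genes. In the length-corrected fit 11 were higher, 4 lower and 15 within 1.5-fold. Birc5 and Ube2c, which act in mitosis, had log2 fold changes of 1.21 ± 0.20 (SE) and 1.15 ± 0.19 (SE) over WT/PEG, and Pcna, the clamp of DNA replication, 0.05 ± 0.11 (SE). Mki67 and Top2a were lower, by 0.40 and 0.36, calls that were lost without a change of sign in 15 and 36 of 46 other fits. With the length trend removed Mki67 was called higher, at 0.61 (adjusted p = 7.6e-04), and Top2a had no call, at 0.055 (adjusted p = 0.78). In that fit Pcna was at -0.46 and Ube2c at 0.35 (adjusted p = 0.051).

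Genes of oxidative phosphorylation depended on the same trend. Of 75 nuclear genes 56 were higher, 5 lower and 16 within 1.5-fold, with a median log2 fold change of 0.82, but with the length trend removed 15 were higher, 35 lower and 44 within 1.5-fold, with a median of -0.15. The 13 mitochondrial genes were lower in 12, and in all 13 with the length trend removed, with mt-Co1 at -1.96 ± 0.35 (SE). Of 24 genes of fatty acid uptake and oxidation 17 were lower and 4 higher, and the 8 displaced were all away and unmoved. Cd36, a fatty acid translocase, had 174 to 277 CPM (median 208) in WT/PEG, 13.4 to 64.5 CPM (median 28.1) in KO/PEG and 11.4 to 51.3 CPM (median 19.99) in KO/NTZ, and Lpl, lipoprotein lipase, was lower by 2.99.

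For protein folding in the endoplasmic reticulum 11 of 24 genes were higher and 9 lower, with Calr, calreticulin, at 1.22 ± 0.16 (SE) and Dnajb9, a co-chaperone of stress, at -1.81 ± 0.24 (SE). Of 26 gastric and intestinal transcription factors 11 were higher, 9 lower and 5 within 1.5-fold, and all 12 displaced were away and unmoved. Spdef, which drives mucous secretory cells, had 27.1 to 40.8 CPM (median 34.4) in WT/PEG, 46.1 to 833 CPM (median 169) in KO/PEG and 108.8 to 753 CPM (median 327) in KO/NTZ. Gata6 and Foxa2, of foregut epithelium, were lower by 1.46 and 1.13, and Hnf4a lay within 1.5-fold at 0.02 ± 0.08 (SE), or was called higher at 0.51 (adjusted p = 4.7e-07) in the length-corrected fit. Barx1, a stomach mesenchyme factor, was higher than WT/PEG by 0.92 ± 0.14 (SE) and higher than KO/PEG by 0.86.

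Markers of tissue next to the corpus were present and uneven. Squamous forestomach genes ran from 35.6 to 738.3 CPM summed in WT/PEG, from 165.3 to 1739 CPM in KO/PEG and from 358.6 to 2086 CPM in KO/NTZ, and 2 of 16 were higher and 1 lower. Sprr1a, a squamous envelope protein, was among those higher, by 2.63 ± 0.37 (SE). Pancreas acinar genes were lower in 5 of 8 and higher in 1, adipocyte genes lower in 1 of 8 and higher in 1, and skeletal muscle genes higher in 2 of 4. The part of these markers in the results was not tested.

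**Figure D5:**
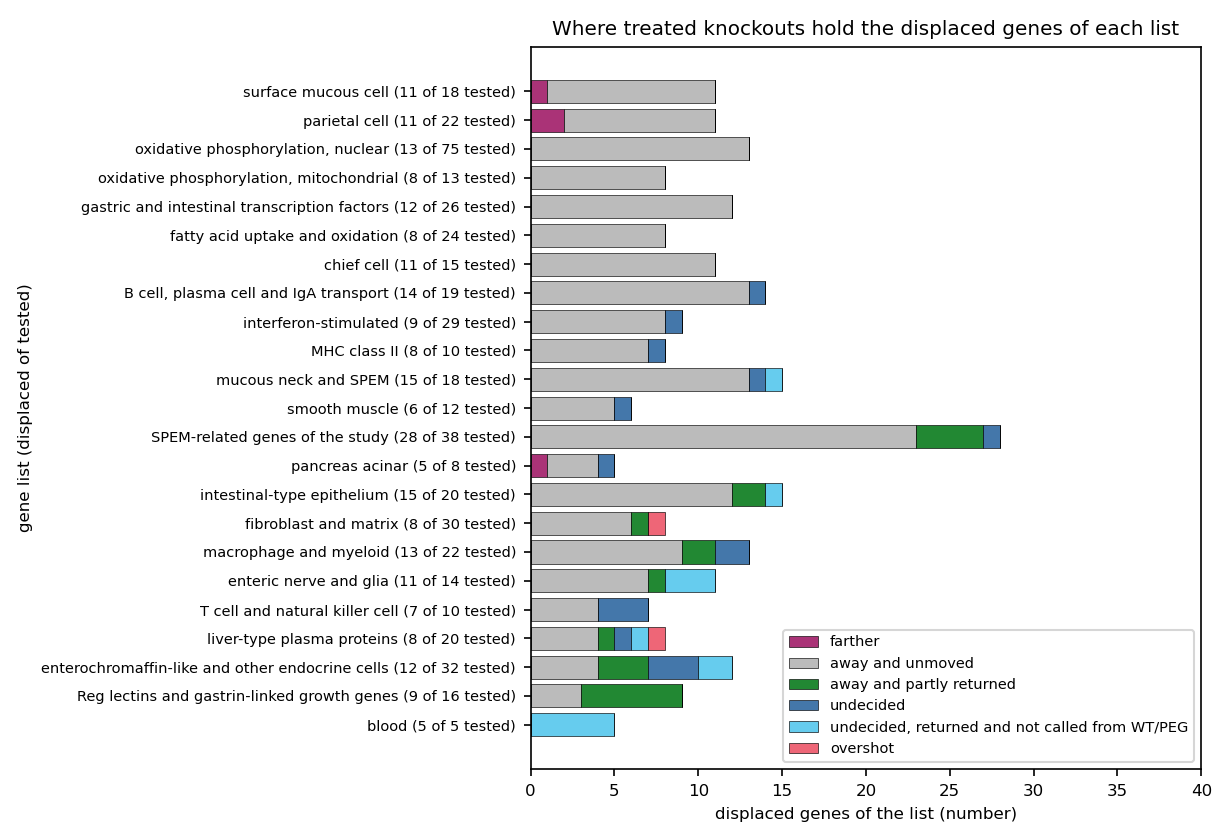
Bars give the number of displaced genes in each gene list that had at least 5, split by where the KO/NTZ mice held them (farther, away and unmoved, away and partly returned, undecided, returned and not called, overshot). Parietal, chief and surface cell lists are all away, and the returns lie mainly in the blood, Reg and growth gene, endocrine, liver-type and nerve lists.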

How the data were processed

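RNA from corpus mucosa was sequenced in 44 stranded mRNA libraries with single reads. The authors pseudoaligned the reads to GRCm38 transcripts with kallisto 0.42.4 and deposited estimated counts per transcript, which are not normalized and need not be whole. Of 94080 transcripts 92372 matched GENCODE vM21 and were summed into 31517 genes, and the 1708 unmatched ones, 0.329 to 1.3% of a library's counts, were left out. Sums were rounded to whole counts.

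Genes were filtered with filterByExpr (minimum count 10, minimum total 15), normalized by TMM and fitted with edgeR 4.0.16 (R 4.3.3) by the quasi-likelihood method, with 1 mean for each of the 4 groups and all 44 libraries, so that all groups shared the estimate of the spread. The study tested transcripts with sleuth, which was not used here. The contrasts were KO/PEG against WT/PEG, KO/NTZ against WT/PEG and KO/NTZ against KO/PEG, with Benjamini-Hochberg adjustment over all 14911 genes and a threshold of 0.05. All tests across genes were two-sided except that for nearness, a pair of one-sided tests against 1.5-fold in both directions, adjusted in the same way. Errors are standard errors of the log2 fold change from that fit, and values are given as the lowest, highest and median CPM of a group.

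Genes named in the text were Atp4b, members of the gene lists with the largest displacement or that define a cell type, and, among genes with a mean of at least 10 CPM and a full symbol, the 10 back in each direction, the 10 furthest above and below WT/PEG, and the 10 farther, overshot or away only under treatment with the smallest p. Other genes are said to have been chosen after their values were seen. The comparison, the lists and the rule were chosen with earlier results of these data known. RNA-seq libraries were grouped by their labels. WT/PEG has 2 libraries whose labels bear the same number, which differed by more than sampling noise and were kept as 2 replicates, and number 110 occurs in both KO/PEG and KO/NTZ. Nothing in the labels says which libraries came from which litter or day, so p-values measure the spread between these libraries, which may in part be technical. Genes with near-identical copies (Amy2a1, Ugt1a6b, Chil4, the globins, immunoglobulins, Reg3b and Reg3g) may share reads.

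The scripts were tested on simulated data. Alternatives were DESeq2 1.42.0 (its size factors, and its Wald test), limma 3.58.1 with voom and sample quality weights, other filters, margins and displacements, subsets of libraries, and each library left out in turn. After seeing the data, 3 more were added. They were an offset that removed each library's trend of log2 count, relative to the mean over libraries, on log2 gene length, each KO/PEG library left out, and KO/PEG libraries 46 and 52 left out together.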

Additional observations from a re-analysis of the deposited data

How the results depend on the processing

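The counts of genes higher and lower in KO/NTZ than in WT/PEG were 5700 and 5772. They stayed within 1.5 times of these values in all 35 leave-one-out fits and in those of the 14 alternatives that could change them. The other margins and the other displacement do not enter these counts. With the length trend removed the counts were 5443 and 5137. The number of genes within 1.5-fold was by construction 371 with a narrower margin and 7056 with a margin of 2-fold, and a displacement of 4-fold left 1045 displaced genes, 837 of them away and unmoved. With the length trend removed 2371 were away and unmoved. The small classes moved most. Back genes numbered 0 with DESeq2 size factors, 0 with no filter, 0 with the filter at 50 counts in 9 libraries, 0 with 3 groups in the fit, 0 with the pair of WT/PEG libraries with a shared number summed, 0 without number 110, 2 with only KO libraries below 100, 0 by the DESeq2 test, 8 by voom, 0 with the narrower margin, 52 with the 2-fold one, 0 with a displacement of 4-fold, 5 with the length trend removed and 7 without KO/PEG libraries 46 and 52. Near genes numbered 13 with the 2-fold margin. Undecided genes numbered 820 with no filter, 81 with the stricter filter, 408 with the 2-fold margin and 82 with a displacement of 4-fold, and partly returned genes 67 with the stricter filter. Farther genes numbered 84 with 3 groups, 217 with only KO libraries below 100, 221 by DESeq2, 409 by voom, 54 with a displacement of 4-fold and 45 without libraries 46 and 52. Overshot genes numbered 2 with the 2-fold margin and 0 with a displacement of 4-fold. Genes away only under treatment numbered 2 with DESeq2 size factors, the stricter filter, number 110 out, only KO libraries below 100 or the DESeq2 test, 8 by voom, 0 with the narrower margin and 76 with the 2-fold one. The cause of these shifts was not tested.

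Leaving out each library in turn gave 5598 to 5777 genes higher, 5553 to 5779 lower, 2807 to 3137 within 1.5-fold, 3780 to 4392 displaced, 0 to 6 back, 0 to 0 near, 3057 to 3949 away and unmoved, 76 to 145 partly returned, 63 to 379 farther, 5 to 8 overshot, 216 to 285 undecided and 0 to 3 away only under treatment, with 0 without the library labelled WT_129_WT_PEG. The count of farther genes fell below 86 without KO/PEG library 31, 46, 52, KO_137_KO_PEG or KO_144_KO_PEG or KO/NTZ library 23, 29, 30, 36, 37 or 110, and was 350 without KO_109_KO_PEG, 306 without KO/PEG library 53 and 212 without KO/NTZ library 27.

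Of 161 genes of the text, 116 kept their call and direction against WT/PEG in all the other fits. The call was lost without a change of sign in 18 and gained in 19, each in at least 1 fit. In 15 the sign changed, all with the length trend removed: Adcy5 to 0.53, Anxa10 to -0.33, Col1a1 to 0.19, Col4a1 to 0.34, Ghrl to -0.34, Hmcn2 to 0.55, Hspb6 to -0.54, Mki67 to 0.61, Pcna to -0.46, Resp18 to -0.83, Speg to 0.36, Tff1 to -0.85, Tgfa to 0.33, Thbs1 to 0.041, Top2a to 0.055. Of these, Col1a1 (adjusted p = 0.17), Thbs1 (adjusted p = 0.89) and Top2a (adjusted p = 0.78) had no call in that fit. No paired analysis was possible because the libraries are told apart by the numbers in their labels, of which KO/NTZ and WT/PEG share none, while KO/NTZ and KO/PEG share 110 alone. Depth limits the genes below about 1 CPM, where 3 reads are 0.137 to 0.495 CPM.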

Other observations

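Genes outside the lists that moved toward WT/PEG under NTZ were looked up after their values were seen. Cybrd1, a ferric reductase for iron uptake, had 30.4 to 412 CPM (median 108.9) in WT/PEG, 17.3 to 60.5 CPM (median 35.4) in KO/PEG and 42.9 to 165 CPM (median 80.7) in KO/NTZ and was partly returned, lower than WT/PEG by 0.97 on the log2 scale. KO/NTZ differed from KO/PEG in Cybrd1 (adjusted p = 0.0098 by edgeR). In the length-corrected fit it was at -0.34 over WT/PEG (adjusted p = 0.33) and undecided, and by voom or with only KO libraries numbered below 100 it was away and unmoved. F3, the tissue factor that starts coagulation, had 9.05 to 16 CPM (median 12.9) in WT/PEG, 19.2 to 64.8 CPM (median 40.02) in KO/PEG and 10.6 to 30.8 CPM (median 18.3) in KO/NTZ. It was partly returned, and back in the length-corrected fit, at 0.11. Zc3h12a, an RNase that limits inflammatory transcripts, was partly returned as well, at 1.24 ± 0.17 (SE) over WT/PEG and -0.85 over KO/PEG.

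Serpina7, the thyroxine-binding globulin, was displaced upward in KO/PEG and returned and not called in KO/NTZ, with 0.539 to 13.1 CPM (median 2.60) in WT/PEG, 4.27 to 27.5 CPM (median 13.2) in KO/PEG and 0.540 to 3.76 CPM (median 1.17) in KO/NTZ. In the length-corrected fit it was lower than WT/PEG, at -1.04 (adjusted p = 0.024). It was overshot in 14 of 46 other fits, among them that one and the DESeq2 test. Sctr, the secretin receptor, was displaced downward, with 16.9 to 31 CPM (median 23.8) in WT/PEG, 1.86 to 18.6 CPM (median 8.83) in KO/PEG and 11 to 31.8 CPM (median 20.5) in KO/NTZ, a log2 fold change of -0.17 ± 0.20 (SE, adjusted p = 0.43) over WT/PEG. The length-corrected fit called Sctr lower, at -0.45, and without KO/PEG libraries 46 and 52 it was back.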
